A study of Homo sapiens with 12 samples.

Results

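The genes described here are the 9 that encode the peroxisome proliferator-activated receptors (PPARA, PPARD and PPARG), their retinoid X receptor partners (RXRA, RXRB and RXRG) and 3 of the coregulators that bind to them (PPARGC1A, PPARGC1B and NCOR1). They were chosen by symbol from the 19677 genes of the count tables, and all 9 were found. RXRG had a count of 0 in every library, and the other 8 passed the filter on low counts that left 12470 genes for testing.

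Total RNA of CAOV3, an established human line of high-grade serous ovarian carcinoma, was sequenced in 12 libraries, 3 for each of 4 groups. Control cells received the solvent DMSO. Ascites cells received 10% ovarian cancer ascites, the peritoneal fluid of patients with this disease, together with DMSO. Bezafibrate cells received 200 uM of the fibrate bezafibrate, a drug class that activates PPARs, and combination cells received the drug and the ascites together. The labels give 16 h for the 3 treated groups and no time for the control, and they name DMSO only in the groups without the drug. All groups were grown in DMEM with fetal bovine serum and antibiotics, with the genotype given as WT. The series asks how ascites and the drug, alone and together, change transcription in this cancer. CAOV3 is 1 cell line, and the labels state neither whether replicates were separate cultures nor from how many sources the ascites came, so the p-values measure only the spread between these libraries, which may be technical.

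PPARs are nuclear receptors for fatty acids and their derivatives, and they bind DNA as heterodimers with an RXR at repeats of a short half-site. PPARA is best known for fatty acid oxidation, PPARD for fatty acid use in many epithelia and muscle, and PPARG for fat storage and adipocyte differentiation. A bound ligand favours coactivators such as PPARGC1A and PPARGC1B (PGC-1 alpha and beta, which promote mitochondrial and oxidative genes) over corepressors such as NCOR1, a scaffold that carries histone deacetylase activity to the receptors.

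Libraries held 11831093 to 18762759 counts. The first principal component of all tested genes (37.0% of the variance) set libraries given the drug apart from those not given it, and on the second (9.88%) combination replicate 3 lay at -22.4 and the other libraries between -4.37 and 9.84. Of 11 epithelial and serous carcinoma markers 7 were tested, with keratins, EPCAM (27.6 ± 1.79 CPM in control, SD, n = 3) and CDH1 (18.6 ± 0.378) present, whereas the serous markers WT1 (0.124 CPM), MUC16 (0.0983) and PAX8 (0.378) were near 0 in control cells. The listed markers MSLN (0.621 CPM) and ESR1 (0.146) were also low in control cells and below the filter. CPM are edgeR's counts scaled to library size, corrected by TMM. Markers of other cell types are given with the drug comparison, since several of them moved with it.

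The promoter windows of the 3 receptor and corepressor genes called with the drug are shown, because PPAR-RXR dimers are known to bind direct repeats of AGGTCA with 1 base between them. All 9 genes matched RefSeq promoter windows (GRCh38.p14, 250 bases before to 50 after a start, in the direction of the gene), with 19 windows in all. The first PPARG window, at chr3:12287118-12287417 on the + strand, holds the half-site AGGTCA at -217 and -184 from the start, and the most downstream, at chr3:12351167-12351466, holds none. PPARD at chr6:35342308-35342607 (+ strand) and NCOR1 at chr17:16215485-16215784 (- strand) hold none either. CREB3L3, a hepatic transcription factor gene and known PPAR target, is added at chr19:4153381-4153680 (+ strand) for comparison. Capitals mark the half-site AGGTCA in PPARG, and in CREB3L3 a match to the repeat AGGTCANAGGTCA with 1 mismatch at -222.
PPARG first start: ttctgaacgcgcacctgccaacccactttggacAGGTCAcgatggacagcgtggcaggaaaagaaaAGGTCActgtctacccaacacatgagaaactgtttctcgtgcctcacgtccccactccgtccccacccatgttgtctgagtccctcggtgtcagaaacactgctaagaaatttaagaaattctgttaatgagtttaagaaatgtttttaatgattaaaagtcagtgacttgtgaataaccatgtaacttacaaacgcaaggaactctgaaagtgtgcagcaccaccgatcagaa
PPARG downstream start: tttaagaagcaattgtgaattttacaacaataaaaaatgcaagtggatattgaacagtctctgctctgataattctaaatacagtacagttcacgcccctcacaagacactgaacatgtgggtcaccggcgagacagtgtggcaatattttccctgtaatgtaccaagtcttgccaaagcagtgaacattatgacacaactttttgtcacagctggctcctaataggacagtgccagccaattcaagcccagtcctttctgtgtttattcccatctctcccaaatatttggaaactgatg
PPARD: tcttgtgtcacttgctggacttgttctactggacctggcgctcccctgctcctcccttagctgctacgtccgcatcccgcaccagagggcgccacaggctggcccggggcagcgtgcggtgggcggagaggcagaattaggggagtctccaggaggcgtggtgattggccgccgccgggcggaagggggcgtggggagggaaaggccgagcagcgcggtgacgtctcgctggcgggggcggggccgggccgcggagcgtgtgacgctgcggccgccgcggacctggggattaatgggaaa
NCOR1: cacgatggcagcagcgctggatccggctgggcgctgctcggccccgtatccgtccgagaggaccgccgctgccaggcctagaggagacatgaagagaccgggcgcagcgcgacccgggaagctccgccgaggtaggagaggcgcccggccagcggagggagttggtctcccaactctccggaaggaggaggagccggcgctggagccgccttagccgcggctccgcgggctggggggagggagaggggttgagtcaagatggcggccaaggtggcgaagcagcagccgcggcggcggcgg
CREB3L3: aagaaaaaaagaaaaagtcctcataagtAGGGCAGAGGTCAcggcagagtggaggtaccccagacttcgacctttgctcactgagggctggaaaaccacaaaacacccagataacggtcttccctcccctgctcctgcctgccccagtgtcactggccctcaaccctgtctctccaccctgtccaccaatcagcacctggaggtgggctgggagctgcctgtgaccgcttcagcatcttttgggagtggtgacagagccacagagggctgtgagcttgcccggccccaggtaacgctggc
The half-site, searched on both strands, was in 4 of the 19 windows, 3 of PPARG (of which 2 overlap) and 1 of RXRG, and in 13.8% of 35116 windows of 27305 genes. With up to 2 mismatches the repeat, which contains the half-site, was in 0 of the 19 windows and in 2.97% of all. Of 38 PPAR target genes 29 matched, with 43 windows. Such a repeat was in 6 of these windows, from 6 genes (ACAA2, ACSL1, CD36, CREB3L3, FABP1 and UCP3). A match describes letters, not binding, and windows away from these starts were not searched.

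PPARG was the leading PPAR of these cells and PPARA the lowest (levels in each library are plotted gene by gene). Per kilobase of merged exons, control cells held 19.8 CPM per kb of PPARG, 2.21 of PPARD and 0.364 of PPARA. PPARG thus made up 88.5% ± 0.863 (SD, n = 3) of the PPAR transcripts on that scale in control cells, PPARD 9.87% ± 0.784 and PPARA 1.63% ± 0.145. With the length of the longest coding transcript instead, PPARG held 93.5% and the order was the same. RXRA and RXRB were both present, but their order depends on the length used. RXRA was 44.9% ± 1.52 of RXR transcripts over merged exons (11083 bases) and 78.4% ± 1.04 over its longest coding transcript (1846 bases). PPARGC1B exceeded PPARGC1A on every length, with 91.7% ± 1.24 of the pair over merged exons and 88.7% over the longest coding transcript.

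Over merged exons the control levels ran from NCOR1 (20.2 CPM per kb) and PPARG (19.8) through RXRB (7.11), RXRA (5.81), PPARGC1B (2.92), PPARD (2.21) and PPARA (0.364) to PPARGC1A (0.265). The control libraries of NCOR1 (19.8 to 20.6) and PPARG (19.4 to 20.1) overlapped, and those of no other neighbours in this order did. Over the longest coding transcripts PPARG (44.3 CPM per kb) and RXRA (34.9) came before NCOR1 (29.05). RXRG had a count of 0 among 173137426 counts, for which 3 counts give an upper limit of 0.0173 CPM over the 12 libraries together and 0.161 to 0.255 CPM in a single one. These limits cover counting error only.

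**Figure D1:**
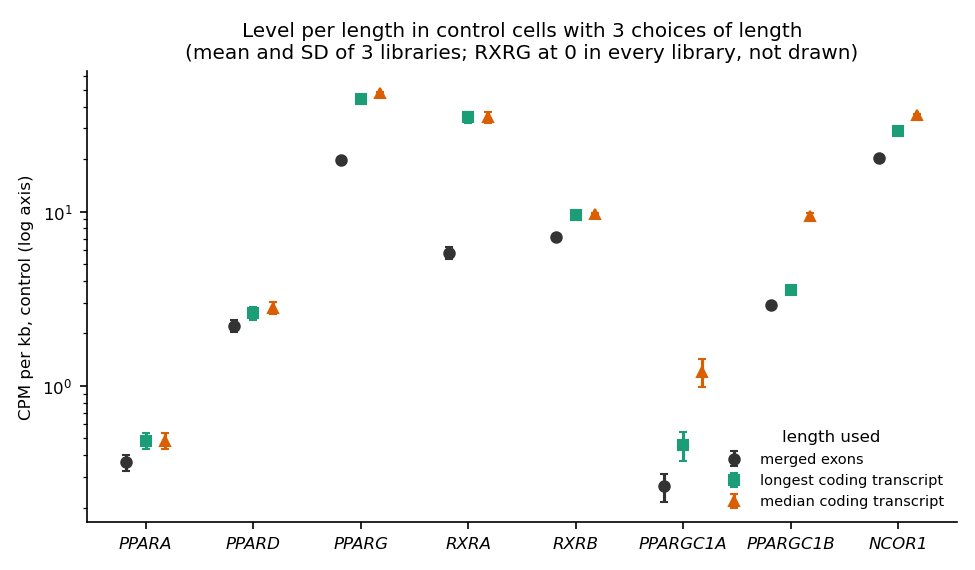
Mean level per kilobase in the 3 control libraries (log axis, CPM per kb) for the 8 detected genes, with bars of 1 SD, using merged exons (circles), the longest coding transcript (squares) or the median coding transcript (triangles) of GENCODE 29. RXRA lies below RXRB with merged exons (5.81 against 7.11) and above it with the other lengths.

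Lengths and positions come from GENCODE 29 on GRCh38, the build in the submitters' processing notes. PPARG (ENSG00000132170.24 in the files) lies at chr3:12287368-12434356 on the + strand, PPARD (ENSG00000112033.14) at chr6:35342558-35428191 on the + strand and PPARA (ENSG00000186951.17) at chr22:46150521-46243756 on the + strand. NCOR1 (ENSG00000141027.22) lies at chr17:16029157-16218185 on the - strand. RXRA (ENSG00000186350.12) is at chr9:134317098-134440585 and PPARGC1B (ENSG00000155846.17) at chr5:149730298-149855022, both on the + strand, and RXRB (ENSG00000204231.11) at chr6:33193588-33200688, RXRG (ENSG00000143171.13) at chr1:165400917-165445355 and PPARGC1A (ENSG00000109819.9) at chr4:23755041-23904089 on the - strand. Exons of NCOR1 share 321 bases (2.08%) with PIGL and 188 (1.22%) with the antisense gene AC002553.1 on the opposite strand, and RXRB exons share 244 bases (6.22%) with SLC39A7. Whether counting used strand is not given in the sources used here, so counts of RXRB and NCOR1 are uncertain to that extent.

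Bezafibrate lowered PPARG, raised PPARD and NCOR1, and left no called change in PPARA, RXRA, RXRB or PPARGC1A. In the comparison of bezafibrate with control 3 of the 8 tested members were called, against 17.6% of all tested genes (10.1% higher and 7.55% lower). Calls rest on edgeR's quasi-likelihood test, with p-values adjusted by Benjamini-Hochberg over the 12470 genes and a threshold of 0.05. The changes were of modest size, between 0.26 and 0.62 on the log2 scale in either direction.

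Some markers of cell identity moved with the drug as well. Of the 7 tested epithelial and serous markers 4 were called higher with bezafibrate and 0 lower. Of all tested genes 10.1% were called higher and 7.55% lower. The median of the 7 markers was 0.25 on the log2 scale. The adhesion gene CDH1 went from 18.6 ± 0.378 CPM in control to 53.3 ± 3.17 with bezafibrate and from 15.9 ± 0.553 with ascites to 51.7 ± 4.82 with both (SD, n = 3), and its log2 fold changes were 1.52 and 1.69 (adjusted p = 1.49e-19 and 2.33e-20 in edgeR). The keratin genes KRT7 and KRT19 had 0.55 and 0.25 with bezafibrate (adjusted p = 3.34e-17 and 2.61e-08 in edgeR). PAX8, which rests on 16 counts over the control libraries and 55 over the bezafibrate libraries, had 1.48 (adjusted p = 0.0252 in edgeR). That call was lost without control replicate 2 or 3 or bezafibrate replicate 1 or 2 (adjusted p = 0.0509 to 0.170 in edgeR) and with DESeq2 (adjusted p = 0.105). The other 3 tested markers were not called. KRT8 and KRT18, which held most of the list's sum, had lower means with bezafibrate. KRT8 averaged 3005 ± 45.8 CPM in control and 2914 ± 57.7 with bezafibrate, and KRT18 1784 ± 20.4 and 1720 ± 40.7 (SD, n = 3). EPCAM had a higher mean, 27.6 ± 1.79 and 31.2 ± 1.58. The 11 listed genes summed to 6153 to 6275 CPM in control, 6307 to 6478 with ascites, 6408 to 6727 with bezafibrate and 6876 to 6974 with both.

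Of 5 adipocyte markers ADIPOQ and CIDEA were at 0 in all 12 libraries, and LEP and PLIN1 were below the filter. The fifth, CIDEC, a lipid droplet protein gene that is also on the list of PPAR targets, averaged 3.23 ± 0.465 CPM in control (SD, n = 3) and lay at 9.04 to 11.2 CPM in the bezafibrate libraries (log2 fold change 1.60, adjusted p = 1.35e-10 in edgeR) and rose by 1.73 when the drug was added to ascites (adjusted p = 2.54e-11 in edgeR). It held most of the list's sum, which was 2.86 to 3.61 CPM in control, 2.50 to 3.77 with ascites, 9.10 to 11.3 with bezafibrate and 9.79 to 11.8 with both. Of 9 fibroblast and mesothelial markers 4 were tested. With bezafibrate 3 were called lower and 0 higher (median -0.42), against 7.55% and 10.1% of all tested genes. The 3 called lower were the collagen genes COL3A1 (-0.71, adjusted p = 0.00683) and COL1A1 (-0.68, adjusted p = 0.00102) and the proteoglycan gene LUM (-0.17, adjusted p = 0.00121 in edgeR). This list summed to 193 to 198 CPM in control, 187 to 194 with ascites, 168 to 179 with bezafibrate and 162 to 179 with both. LUM held most of that sum, at 183.9 ± 1.77 CPM in control and 164.0 ± 6.12 with bezafibrate (SD, n = 3). COL1A2, DCN, PDGFRB, UPK3B and LRRN4 were below the filter, at 0 to 0.325 CPM in control. Of these UPK3B (0.168 CPM in control, 0.450 with bezafibrate) and COL1A2 (0 and 0.0229) had higher means with the drug, and DCN, PDGFRB and LRRN4 had lower ones.

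Of 14 blood cell and platelet markers 8 were at 0 in all 12 libraries, among them PTPRC, CD3E, TYROBP, S100A8, PPBP and PF4. Of all tested genes 17.6% were called with bezafibrate. Near that share, 1 of the 5 tested markers was called higher and 0 lower. It was the lysosomal gene CD68, which held most of the list's sum (72.5 ± 2.07 CPM in control and 91.0 ± 2.76 with bezafibrate, SD, n = 3; log2 fold change 0.33, adjusted p = 7.65e-07 in edgeR). The sum was 75.5 to 78.5 CPM in control, 76.2 to 85.6 with ascites, 92.8 to 97.5 with bezafibrate and 94.8 to 102.6 with both. The part of these markers in the members' changes was not tested, and in bulk RNA fewer cells of a type and less RNA per cell cannot be told apart.

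PPARG counted 90.3, 87.9 and 91.2 CPM in the control libraries, 91.8, 90.9 and 92.1 with ascites, 63.5, 71.2 and 71.6 with bezafibrate and 70.7, 69.8 and 72.3 with both. All 6 libraries with the drug lay below all 6 without it, and the ascites and control libraries overlapped. Its log2 fold change was -0.39 (SE 0.0459, 95% interval -0.48 to -0.29, adjusted p = 1.97e-08 in edgeR) for bezafibrate against control, a fall of 23.5%. For the combination against ascites, which shares no library with that comparison, it was -0.37 (SE 0.0468, adjusted p = 7.59e-08 in edgeR).

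PPARD counted 8.93, 10.4 and 10.2 CPM in control, 10.8, 10.1 and 8.69 with ascites, 14.6, 14.6 and 16.3 with bezafibrate and 14.4, 12.6 and 13.7 with both. Again no library with the drug overlapped one without it, here in the upward direction. The log2 fold change was 0.62 (SE 0.102, 95% interval 0.42 to 0.83, adjusted p = 1.02e-05 in edgeR) with bezafibrate alone, or 54.1% more than control. With ascites present it was 0.47 (SE 0.106, adjusted p = 0.00113 in edgeR).
Of all 12470 tested genes 15.3% had the 6 libraries with the drug entirely above or below the 6 without it, as PPARG, PPARD and NCOR1 did, and 33.5% had bezafibrate and control libraries that did not overlap. The 3 combination libraries of PPARD lay below the 3 bezafibrate libraries, which held for 9.27% of all tested genes in either direction. That difference of -0.15 on the log2 scale (95% interval -0.35 to 0.04) was not called (adjusted p = 0.99984 in edgeR).

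PPARA, the receptor usually tied to fibrates in liver, was low and counted 4.43, 4.63 and 5.39 CPM in control, 5.91, 5.07 and 4.65 with ascites, 5.00, 5.76 and 4.47 with bezafibrate and 6.22, 5.52 and 6.25 with both. The control, ascites and bezafibrate ranges overlapped, and these values rest on 63 to 107 counts per library. With bezafibrate its log2 fold change was 0.09 (95% interval -0.22 to 0.40, adjusted p = 0.777 in edgeR), an interval that includes the change seen in NCOR1. The combination libraries lay above all control libraries, with a log2 fold change of 0.32 whose p of 0.0419 in edgeR became 0.154 after adjustment. That comparison left 30.2% of all tested genes without overlap.

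**Figure D2:**
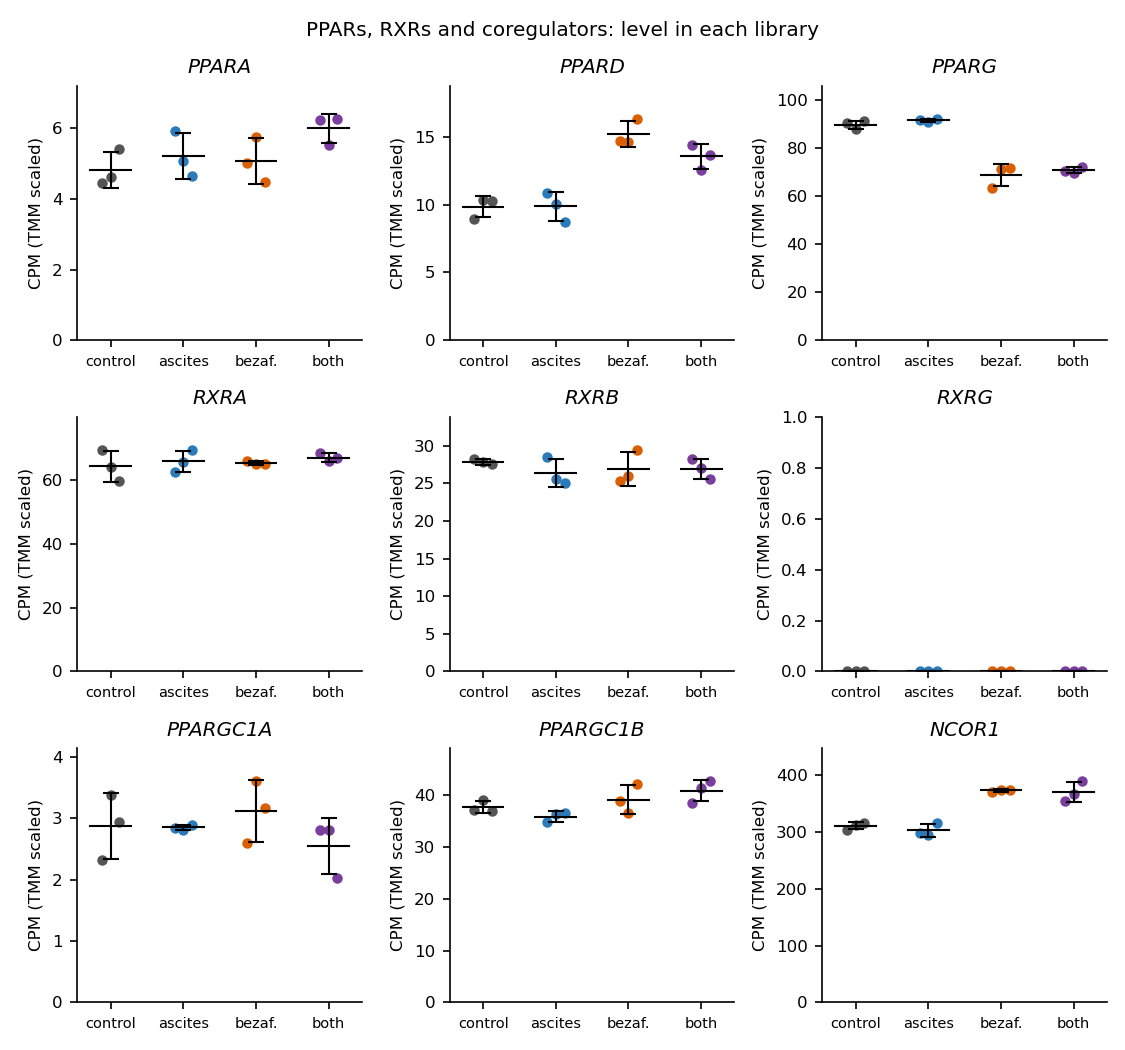
Level of each of the 9 genes (CPM, TMM scaled, axes from 0) in the 3 libraries of each group, with points for libraries, long bars for means and error bars of 1 SD. PPARG sits at 63.5 to 72.3 in the libraries with bezafibrate and at 87.9 to 92.1 in those without it, PPARD and NCOR1 sit higher with the drug, and RXRG is at 0 throughout.

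As PPARG fell and PPARD rose, their ratio within a library moved more than either gene. PPARG counts per PPARD count averaged 9.17 ± 0.843 in control, 9.37 ± 1.10 with ascites, 4.54 ± 0.300 with bezafibrate and 5.25 ± 0.317 with both (SD, n = 3). The highest value with the drug, 5.55, lay below the lowest without it, 8.49. Per kilobase of merged exons the PPARD share of PPAR transcripts went from 9.87% ± 0.784 in control to 17.98% ± 0.972 with bezafibrate and from 9.69% ± 0.967 with ascites to 15.9% ± 0.794 with both. The PPARG share stayed the largest, at 80.0% ± 0.836 with bezafibrate and 81.8% ± 0.887 with both (88.2% and 89.3% over the longest coding transcripts). These ratios and shares restate the levels above and were not tested separately.

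No change was called in the RXR partners. RXRA counted 69.3, 64.1 and 59.6 CPM in control, 62.6, 65.7 and 69.4 with ascites, 66.0, 64.9 and 65.1 with bezafibrate and 68.6, 65.8 and 66.8 with both. RXRB counted 28.3, 27.8 and 27.5 in control, 28.5, 25.6 and 25.05 with ascites, 25.3, 25.99 and 29.4 with bezafibrate and 28.3, 27 and 25.6 with both. The groups overlapped for both genes in every comparison. With bezafibrate the 95% interval of the log2 fold change was -0.09 to 0.12 for RXRA and -0.20 to 0.08 for RXRB, so a change as large as that of PPARG lay outside both. PPARG counts per RXRA count averaged 1.40 ± 0.116 in control and 1.05 ± 0.0784 with bezafibrate, and 1.39 ± 0.0701 with ascites and 1.06 ± 0.0254 with both (SD, n = 3). RXRA counts per RXRB count were 2.31 ± 0.142, 2.51 ± 0.289, 2.44 ± 0.205 and 2.49 ± 0.104 in control, ascites, bezafibrate and combination cells.

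**Figure D3:**
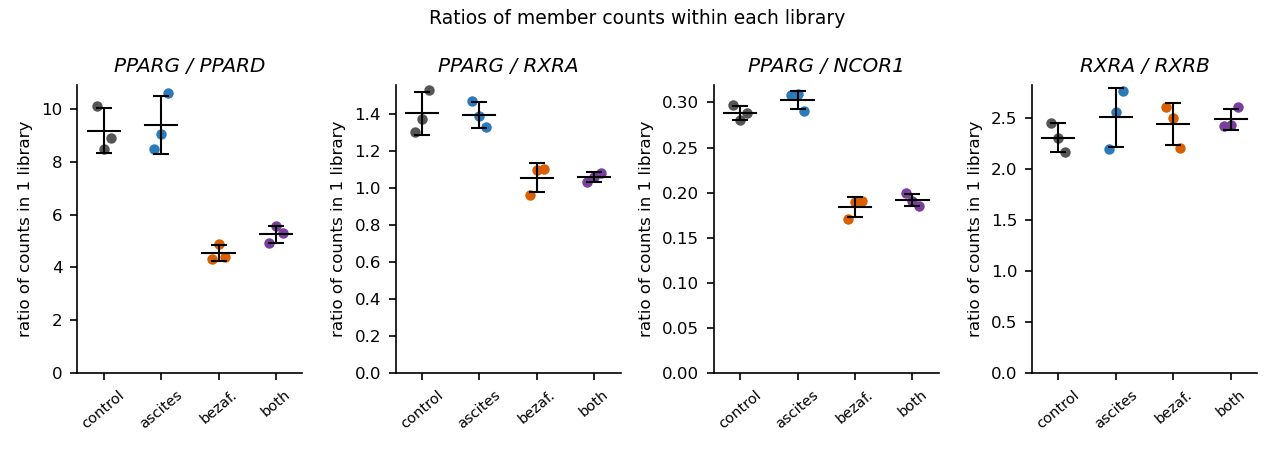
Ratio of the counts of 2 genes within each library (no unit, axes from 0) by group, with points for libraries, long bars for means and error bars of 1 SD. PPARG per PPARD lies at 4.33 to 5.55 with bezafibrate and at 8.49 to 10.6 without it, whereas RXRA per RXRB overlaps between all groups.

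Among the coactivators, PPARGC1A, the inducible PGC-1, was low, and PPARGC1B showed a small rise that depended on the comparison. PPARGC1A counted between 2.03 and 3.61 CPM over the 12 libraries, from 24 to 67 counts each. Its log2 fold change with bezafibrate was 0.13 with a 95% interval of -0.28 to 0.54 (adjusted p = 0.759 in edgeR), so neither a rise nor a fall of the size seen for NCOR1 could be told from no change at this depth. PPARGC1B counted 37.1, 39.0 and 36.9 CPM in control, 34.7, 36.5 and 36.5 with ascites, 38.9, 36.5 and 42.1 with bezafibrate and 38.6, 41.4 and 42.7 with both. The ascites and combination libraries did not overlap, as for 30.5% of all tested genes, but the control and bezafibrate libraries did.

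For the combination against ascites 4 of the 8 tested members were called, against 17.8% of all tested genes, and PPARGC1B was the one added to PPARD, PPARG and NCOR1. Its log2 fold change there was 0.18 (SE 0.0624, adjusted p = 0.0367 in edgeR), and with bezafibrate against control it was 0.05 (95% interval -0.07 to 0.18, adjusted p = 0.647 in edgeR). The call was lost without ascites replicate 1, 2 or 3 (adjusted p = 0.145, 0.0645 and 0.0682 in edgeR) and without combination replicate 2 or 3 (adjusted p = 0.0929 and 0.123 in edgeR). Upper-quartile scaling, a fit of the 2 groups alone and DESeq2 also ended it (adjusted p = 0.0637, 0.0589 and 0.128). The test of whether the drug's effect on PPARGC1B differed with ascites did not pass (difference 0.13 on the log2 scale, adjusted p = 0.999 in edgeR).

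NCOR1, the corepressor, had the smallest standard errors of the called genes. It counted 304.3, 313.0 and 316.8 CPM in control, 298.0, 294.5 and 316.5 with ascites, 370.6, 374.3 and 374.8 with bezafibrate and 355.1, 366.8 and 389.6 with both. The 6 libraries with the drug all lay above the 6 without it. The log2 fold change was 0.26 (SE 0.0332, 95% interval 0.19 to 0.33, adjusted p = 8.15e-08 in edgeR) with bezafibrate alone, an increase of 19.9%, and 0.29 (SE 0.0336, adjusted p = 1.25e-08 in edgeR) with ascites present. Without combination replicate 3, the library set apart on the second component, the combination against ascites gave 0.46 for PPARD (adjusted p = 0.00179), -0.38 for PPARG (adjusted p = 3.13e-09) and 0.25 for NCOR1 (adjusted p = 7.94e-10 in edgeR). PPARG counts per NCOR1 count averaged 0.289 ± 0.00797 in control and 0.303 ± 0.0101 with ascites, and 0.184 ± 0.0112 with bezafibrate and 0.192 ± 0.00694 with both (SD, n = 3).

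**Figure D4:**
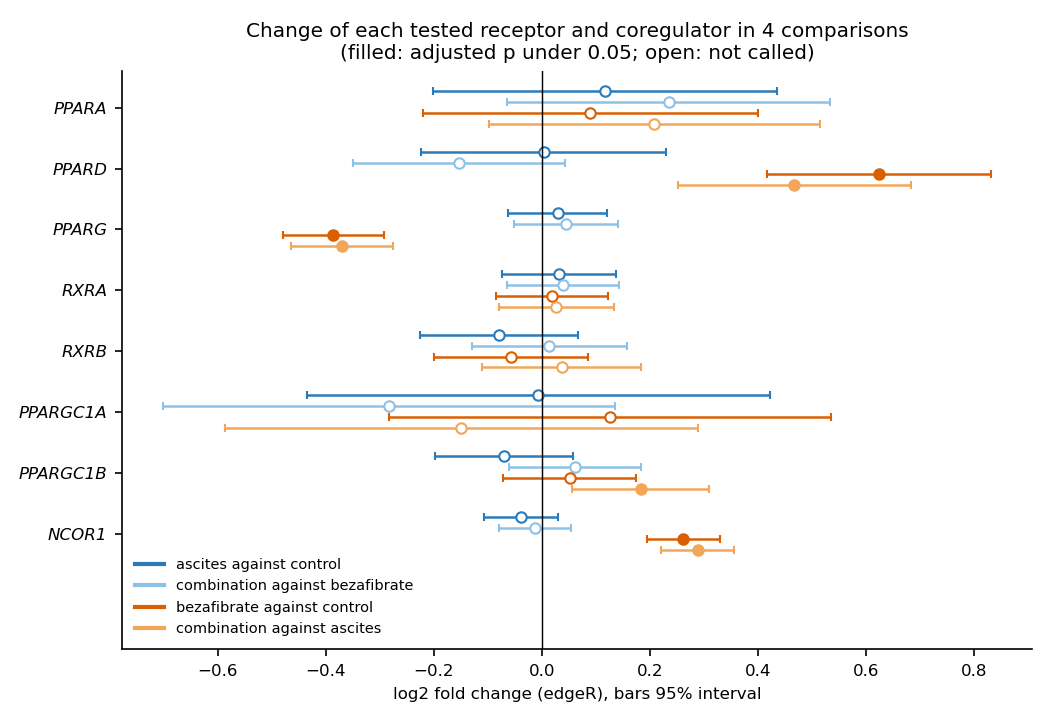
Log2 fold change of each of the 8 tested genes with its 95% interval in 4 comparisons, ascites added without or with the drug (blue) and the drug added without or with ascites (orange). Filled points are calls at an adjusted p under 0.05, and they are PPARD, PPARG and NCOR1 in both drug comparisons and PPARGC1B for the combination against ascites.

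No change of the 8 genes was called when ascites was added. In ascites against control 0 of 8 members were called, against 0.0882% of all tested genes (11 genes in edgeR, and 749 at an unadjusted p under 0.05), and the lowest adjusted p among the members was 0.943. The log2 fold changes were 0.12 for PPARA, 0.00 for PPARD, 0.03 for PPARG and RXRA, -0.08 for RXRB, -0.01 for PPARGC1A, -0.07 for PPARGC1B and -0.04 for NCOR1. PPARGC1B was the only member whose ascites and control libraries did not overlap, being lower with ascites, which held for 12.7% of all tested genes in either direction. With the drug present, the combination against bezafibrate also called 0 of 8 members, against 0.128% of all genes (16 genes in edgeR, and 597 at an unadjusted p under 0.05). The log2 fold changes there included 0.23 for PPARA, -0.28 for PPARGC1A, 0.05 for PPARG and -0.01 for NCOR1, all with an adjusted p of 0.99984 in edgeR.

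The drug's effect was not shown to differ with ascites for any member. The difference of the 2 drug effects was -0.16 on the log2 scale for PPARD (95% interval -0.46 to 0.14), 0.02 for PPARG (-0.12 to 0.15) and 0.03 for NCOR1 (-0.07 to 0.12), each with an adjusted p of 0.999 in edgeR. No gene of the 12470 was called in that test by edgeR (0% of genes, with 445 at an unadjusted p under 0.05). Averaged over both backgrounds the drug changed PPARD by 0.55 (SE 0.0737, adjusted p = 1.66e-07), PPARG by -0.38 (SE 0.0328, adjusted p = 4.69e-12) and NCOR1 by 0.28 (SE 0.0236, adjusted p = 3.68e-12 in edgeR). PPARGC1B was called in that average too (0.12, SE 0.0435, adjusted p = 0.0392 in edgeR), giving 4 of 8 members against 28.3% of all genes, although its libraries with and without the drug overlapped. Without 1 library at a time the PPARGC1B average ran from 0.09 to 0.14 with adjusted p from 0.0155 to 0.135 over all alternatives, and the call was lost without control replicate 1 or 3, ascites replicate 1 or 3, bezafibrate replicate 1 or 3, or combination replicate 2 or 3. Against the control, the combination called PPARD (0.47), PPARG (-0.34) and NCOR1 (0.25), 3 of 8 against 18.2% of all genes, in a comparison that shares its libraries with those above.

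Over the 12 libraries PPARG ran opposite to PPARD (Pearson r = -0.90) and to NCOR1 (r = -0.92), while PPARD and NCOR1 ran together (r = 0.87). These correlations of log2 CPM describe 12 libraries that share the same drug grouping, so that genes changed by the drug tend to correlate with one another. The genes with the pattern most like PPARG were PRDM8 (r = 0.981), PKP2 (0.980) and CD44 (0.976), of which PKP2 is a desmosomal plakophilin and CD44 a hyaluronan receptor. Nearest to PPARD were GMPPA (0.971), SLC29A1 (0.957), a nucleoside transporter, and BAMBI (0.957). NCOR1 was matched most closely by RAI14 (0.989), CHMP2B (0.988) and the collagen receptor subunit ITGA2 (0.986). PPARGC1B had looser matches in ETV3 (0.885), TOPORS (0.863) and SAMD14 (0.862), of which SAMD14 averaged only 0.606 CPM.

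Of 16 further PPAR coactivators 15 were tested, and with bezafibrate 1 was called higher and 2 lower, against 17.6% of all tested genes called (10.1% higher and 7.55% lower). That count lies near the share of all genes, and the list's median was -0.04 on the log2 scale, against -0.00 for all genes. HELZ2, a helicase that coactivates PPARs, had 0.26 (adjusted p = 0.00441 in edgeR), whereas the acetyltransferase genes KAT2B and CREBBP had -0.31 (adjusted p = 0.0249) and -0.13 (adjusted p = 0.0397 in edgeR). These calls depended on single libraries. HELZ2 lost its call without control replicate 3 (adjusted p = 0.0568 in edgeR). KAT2B lost its call without control replicate 1 or 2 or bezafibrate replicate 1 or 2 (adjusted p = 0.0545 to 0.154 in edgeR), and CREBBP without control replicate 1, 2 or 3 or bezafibrate replicate 1 or 2 (adjusted p = 0.0558 to 0.207 in edgeR). The steroid receptor coactivators NCOA1, NCOA2 and NCOA3, the mediator subunit MED1 and the acetyltransferase EP300 had log2 fold changes between -0.05 and 0.05 and were not called.

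Of 9 further corepressors 8 were tested, with 0 called higher and 2 lower with bezafibrate and a median of -0.06, a count that with 8 genes is again near the 17.6% called among all. The ligand-dependent corepressor LCOR had -0.16 (adjusted p = 0.00225 in edgeR) and the deacetylase gene SIRT1 had -0.15 (adjusted p = 0.0420 in edgeR). For the combination against ascites LCOR had -0.05 and was called in 0 of 12 alternatives. SIRT1 lost its call without control replicate 1, 2 or 3 or bezafibrate replicate 1 or 2 (adjusted p = 0.0520 to 0.164 in edgeR). The listed partners of NCOR1 in its complex, HDAC3, TBL1X, TBL1XR1 and GPS2, had values between -0.06 and -0.00 and were not called. NRIP1 (RIP140) had a count of 0 in all 12 libraries.

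For the combination against ascites the coactivator list had 1 gene called higher, HELZ2 (0.23), and 1 lower, PPRC1 (-0.12), against 17.8% of all tested genes called in either direction, with a median of 0.03. PPRC1 is named after its value was seen. The corepressors called there included SIRT1, which was lower (-0.17, adjusted p = 0.0229 in edgeR), a call lost without ascites replicate 1 or 3 (adjusted p = 0.0641 and 0.137 in edgeR) and without combination replicate 2 (adjusted p = 0.121 in edgeR). Without 1 library at a time the coactivators called ran from 0 to 4. They numbered 0 without ascites replicate 3, 1 without ascites replicate 1 or combination replicate 2, and 4 without combination replicate 1.

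Of 11 other receptors that pair with RXR 8 were tested, and with bezafibrate 3 were called higher and 1 lower, against 10.1% and 7.55% of all tested genes, with a median of 0.13. NR1H3, the oxysterol receptor LXR alpha, averaged 10.3 ± 1.32 CPM in control, 11 ± 0.463 with ascites, 22.1 ± 1.72 with bezafibrate and 23.4 ± 3.0 with both (SD, n = 3), and its log2 fold change was 1.10 in both drug comparisons (adjusted p = 3.28e-11 and 2.72e-11 in edgeR). The thyroid hormone receptor gene THRB rose by 0.43 (adjusted p = 5.67e-09) and the retinoic acid receptor gene RARA by 0.36 (adjusted p = 3.22e-06 in edgeR). RARB fell by 0.65 on the log2 scale, from 11.05 ± 0.394 to 7.02 ± 0.311 CPM (SD, n = 3; adjusted p = 4.27e-05 in edgeR). For the combination against ascites the same 4 genes were called in the same directions, with 1.10, 0.49, 0.45 and -0.73, and their number was 4 in each comparison without any 1 library.

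Of 12 PGC-1 partners and programme genes 10 were tested, and 2 were called higher with bezafibrate and 0 lower, with a median of 0.02. That count is near the 17.6% called among all tested genes. GABPA, a subunit of nuclear respiratory factor 2, had 0.18 (adjusted p = 0.00391 in edgeR) and the oestrogen-related receptor gene ESRRA 0.17 (adjusted p = 0.00180 in edgeR). For the combination against ascites ESRRA (0.18, adjusted p = 0.00137 in edgeR) and MFN2, a mitochondrial fusion gene named after its value was seen (0.12, adjusted p = 0.0217 in edgeR), were called, and the median was 0.01. This count was 1 without ascites replicate 1 or 2 or combination replicate 1.

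Most known PPAR targets rose with the drug. Of 38 listed 31 were tested, and with bezafibrate 29 were called higher and 0 lower, against 10.1% of all tested genes called higher and 7.55% lower (median 0.69 on the log2 scale, against -0.00 for all genes). This list, like the others, was chosen with earlier results of these data known, so the count describes it and is not independent support. PDK4, a kinase that spares glucose by inhibiting pyruvate dehydrogenase, averaged 8.26 ± 0.353 CPM in control and 138.8 ± 1.89 with bezafibrate (SD, n = 3; log2 fold change 4.07). FABP4, a fatty acid carrier, had 3.69 and ANGPTL4, a lipoprotein lipase inhibitor, 3.60. The lipid droplet proteins PLIN4 and PLIN2 had 3.56 and 2.73, and CPT1A, a gene of mitochondrial fatty acid import, 0.97. These fold changes exceed every change among the receptors and coregulators themselves, of which the largest was 0.62. CREB3L3, whose window is printed above, went from 40.8 ± 1.81 to 155.4 ± 5.13 CPM (SD, n = 3; log2 fold change 1.93, adjusted p = 8.24e-29 in edgeR). Of the other genes with a repeat in their window, ACSL1 had 1.77 and FABP1 1.21 and both were called, whereas CD36 and UCP3 were below the filter. ACAA2, which also holds a repeat, had a smaller relative rise. It averaged 134.6 ± 4.57 CPM in control and 204.2 ± 3.37 with bezafibrate (SD, n = 3). PDK4, FABP4, ANGPTL4, PLIN4 and PLIN2, whose rises were larger than that of CREB3L3, were not among the 6 genes with a repeat. Only 29 of the 38 targets had a window to search. A link between repeat and change was not tested.

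**Figure D5:**
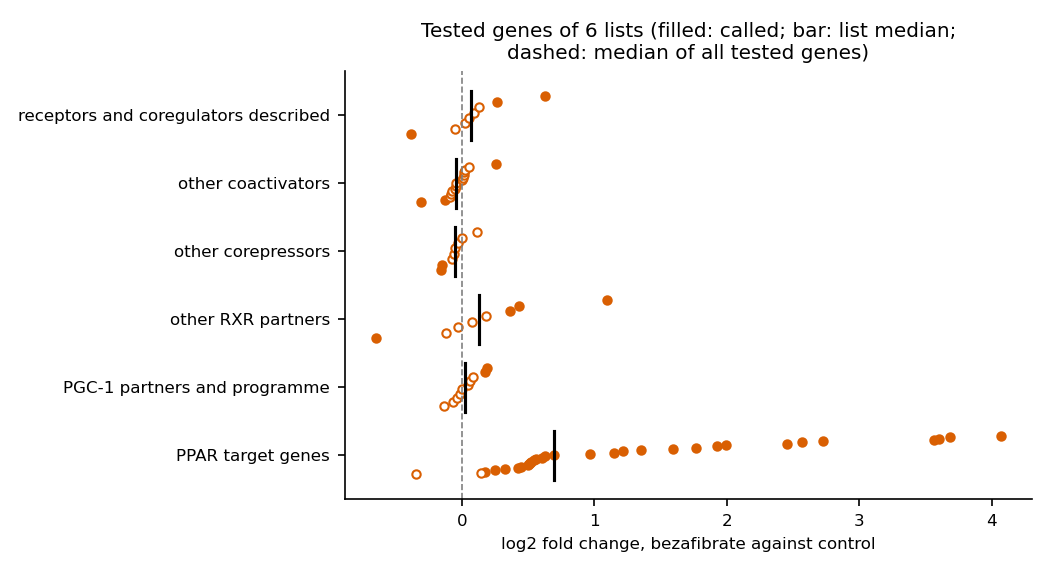
Log2 fold change with bezafibrate against control for each tested gene of 6 lists, filled where called, with the list median (bar) and the median of all tested genes (dashed line). The 8 receptors and coregulators lie between -0.39 and 0.62, and the PPAR targets reach 4.07 with a median of 0.69.

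With ascites present the drug again raised 28 of the 31 tested targets and lowered 0 (10.5% and 7.29% of all tested genes), with a median of 0.79. In ascites against control 0 genes of any of these 5 lists were called, and the lowest adjusted p was 0.0654 in edgeR. In the combination against bezafibrate only FABP4 among them was called (0.15, adjusted p = 0.0152 in edgeR), and this call was lost without bezafibrate replicate 2 or 3 (adjusted p = 0.117 and 0.255 in edgeR), without combination replicate 3 (adjusted p = 0.0501 in edgeR) and when the 2 groups were fitted alone (adjusted p = 0.306 in edgeR). Averaged over both backgrounds, ascites called 0 of 8 members against 0.281% of all genes. In that average LPIN1, a lipin that coactivates PPARs, had -0.22 (adjusted p = 0.00645 in edgeR) and THRA, a thyroid hormone receptor, -0.19 (adjusted p = 0.0151 in edgeR); both are named after their values were seen. LPIN1 lost its call without ascites replicate 3 (adjusted p = 0.0503 in edgeR), and THRA without control replicate 1 (0.0605), ascites replicate 2 (0.119) or bezafibrate replicate 2 (adjusted p = 0.0550 in edgeR).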

How the data were processed

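RNA of CAOV3 cells was measured in 12 libraries, 3 in each of 4 labelled groups. The deposited counts are whole numbers per gene, in a separate table for each library. The submitters' processing notes name Trimmomatic 0.39, STAR 2.7.9a, RSEM 1.3.3, DESeq2 1.28.1 and GRCh38 with no role or order. RSEM gives estimated counts, so the deposited counts may be rounded estimates. The annotation and strand setting are not given in the sources used here.

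Genes were filtered with filterByExpr (minimum count 10, minimum total 15), which left 12470, and were tested with edgeR 4.0.16 (TMM scaling, glmQLFit with robust estimation, glmQLFTest) in R 4.3.3, with all 12 libraries sharing 1 dispersion trend and 8 residual degrees of freedom. The 8 contrasts were 5 between groups, the interaction and the averaged effects of drug and ascites. Calls were made at a Benjamini-Hochberg adjusted p under 0.05 within a contrast. Libraries ranged from 11831093 to 18762759 counts, and tested genes held at least 99.96% of them. Pairs of replicates differed by a chi-square of 1.44 to 4.45 per degree of freedom, so no library was a copy of another. These values do not show whether replicates were separate cultures. Correlations and components used log2 CPM (prior count 2).

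The members and lists were chosen with earlier results of these data known. All members are described in every group. From each other list up to 4 called genes with the largest change under bezafibrate are named, with any list gene called when ascites was added, and PDK4, ANGPTL4, CPT1A and PLIN2 always. Likeness is given by the 3 tested genes with the highest Pearson r for each called member. Tested on simulated data for bezafibrate against control (12362 genes), the edgeR test recovered 31 of 50 genes changed 1.25-fold and 45 of 50 changed 1.5-fold. It recovered 43 of 50 changed 2-fold and 48 of 50 changed 4-fold. Among genes that passed the filter in that run these were 64.6%, 90%, 87.8% and 98.0%. Alternatives were RLE or upper-quartile scaling, no filter, DESeq2 1.42.0, a fit of only the groups compared, a replicate block, a stricter threshold and leaving out each library. Other gene lengths were added after seeing the data. The result of 1 listed corepressor is not reported here.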

Additional observations from a re-analysis of the deposited data

How the results depend on the processing

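PPARD, PPARG and NCOR1 kept their direction and their call in both drug comparisons and in the averaged drug effect under every alternative run (RLE and upper-quartile scaling, DESeq2, no filter, a fit of the compared groups alone where 2 groups are compared, a replicate block and each library left out). With bezafibrate against control PPARD ran from 0.56 to 0.67 on the log2 scale, PPARG from -0.41 to -0.33 and NCOR1 from 0.24 to 0.27. PPARGC1B kept its direction and was called in 4 of 12 alternatives for the combination against ascites and in 7 of 17 for the averaged drug effect. Of the members' results 352 of 357 kept their side of the threshold with all libraries and 515 of 528 without 1 library, and 0 reversed.

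Same-numbered replicates did not deviate together (r = -0.135 to 0.0613 over 18 pairs, with 6 of 18 matching their own number best), so the numbers were not taken as pairing the libraries. With the replicate block 3 members were called with bezafibrate against control. When the drug was added to ascites 4 were called, when both agents were set against control 3, and when ascites alone was added 0, with or without the drug, and the block changed none of these counts.

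Counts over all genes depended more on the settings where ascites was added. Ascites against control called 11 genes, 59 with no filter, 33 with the 2 groups alone, 4 at an adjusted p under 0.01 and 3 to 5 without 1 library. The combination against bezafibrate called 16, and 52, 7, 6 and 9 to 28 under the same settings. The interaction called 0, 36 with no filter, 1 with the replicate block and up to 3 without 1 library. Averaged ascites called 35, 113 with no filter, 19 at the stricter threshold and 21 to 118 without 1 library. The combination against ascites called 2214, and 1475 at the stricter threshold. The cause was not tested. In the coactivator list bezafibrate called 3 genes and DESeq2 1, and in the corepressor list 2 and 1. Depth limits PPARA and PPARGC1A, whose counts per library were 63 to 107 and 24 to 67. The longest and median coding transcript lengths were added after seeing the data.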
